A study of Mus musculus with 4 samples.

Results

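Contractile smooth muscle cells of the mouse aortic arch were examined in 4 single-cell RNA libraries. They were chosen by their own transcripts: barcodes were kept where 200 to 6000 genes were detected and mitochondrial transcripts made up no more than 15% of UMIs (unique molecular identifiers, 1 for each captured transcript), and those with at least 5 UMIs of Myh11 and at least 20 of Acta2, and with none of Ptprc, Pdgfra or Cdh5, were taken as members. In all, 1681 of 14148 kept cells were members, a share of 11.9% (Clopper-Pearson 95% interval 11.4 to 12.4%). All mice were male and 3 months old at the start. Nrf2 flox/flox mice were set beside Nrf2 Cdh5tKO mice, in which a Cre recombinase driven by the Cdh5 promoter removes an exon of Nfe2l2, the gene of the transcription factor Nrf2, from Cdh5-expressing cells, part of the leukocytes included. Atherosclerotic mice had received a viral vector through the tail vein and were fed a high-fat diet for 21 weeks, and normocholesterolemic mice had received saline and standard chow. Each library held cells of pooled aortic arches with their main branches and perivascular tissue, from 4 normocholesterolemic or 3 atherosclerotic mice, sorted as DAPI-negative. With 1 library per condition there was no replicate, so no test between conditions was made, and every interval given covers counting error only. The diet and the viral vector were given together and cannot be told apart.

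Vascular smooth muscle contracts when calcium-bound calmodulin activates myosin light chain kinase, which phosphorylates the light chains of smooth muscle myosin so that it can pull on actin. The genes of this machinery are switched on by serum response factor together with its cofactor myocardin, which act at CArG boxes in promoters. In atherosclerosis, smooth muscle cells of the media are known to lose part of this programme and to take up genes of matrix, adhesion and inflammation, a shift called phenotypic modulation, so a gate on high Myh11 and Acta2 describes the cells that still carry it.

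The normocholesterolemic Nrf2 flox/flox library held 1142 members among 7890 kept cells (14.5%, interval 13.7 to 15.3%). The normocholesterolemic library labelled Cdh5tKO held 276 of 2972 (9.29%, 8.27 to 10.4%), the atherosclerotic flox/flox library 52 of 1020 (5.10%, 3.83 to 6.63%) and the atherosclerotic library labelled Cdh5tKO 211 of 2266 (9.31%, 8.15 to 10.6%). The atherosclerotic flox/flox library thus held the fewest smooth muscle cells, both in number and as a share, and these shares also depend on how the tissue was dissociated and sorted. Values are given in this order of libraries unless they are named. Members carried 17733107, 4435210, 661328 and 2710768 UMIs in all, with medians of 15722, 16449, 12573 and 13137 UMIs per cell, against medians of 11362.5, 13911, 10838 and 8815 in the other kept cells. Levels are given as UMIs per 1000000 UMIs of the members of a library (CPM).

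The gate set several limits on what could be seen. Of 2232 kept cells with enough Myh11 and Acta2, 551 (24.7%) were left out for a UMI of Pdgfra (439 cells), Ptprc (159) or Cdh5 (8). The 18 members with 5 or 6 Myh11 UMIs had 1090 CPM of Myh11 and 9293 CPM of Tagln, while the 14 cells with 3 or 4 Myh11 UMIs that missed only this threshold had 693 and 13621 CPM. At the Acta2 threshold, the 17 members with 20 to 29 UMIs had 5298 CPM of Acta2 and 3743 CPM of Myh11, and the 32 cells with 10 to 19 UMIs had 3849 and 2528 CPM. Dcn, a fibroblast transcript, was at 2621 and 4486 CPM on the inner and outer side of the Myh11 threshold. Scrublet marked 20 of the 1681 members as likely doublets. Barcodes shared between 2 libraries numbered 1 to 7 per pair among kept cells, and 1 barcode was a member in 2 libraries.

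The label was checked on the 4 given markers that the gate did not use. Tagln, an actin-binding protein of contractile cells, stood at 15508, 14168, 12978 and 14468 CPM, against 1221, 620, 236 and 923 CPM in the other kept cells. Cnn1, which encodes calponin, reached 1541, 1657, 1371 and 1386 CPM against 122, 73.4, 30.0 and 86.6. Myocd, the gene of myocardin, reached 112, 89.5, 104 and 94.1 CPM against 8.53, 3.87, 2.16 and 6.27, and Npnt, a matrix ligand of integrin alpha 8, 668, 679, 653 and 632 CPM against 47.7, 35.7, 17.5 and 33.3. All 4 markers were at least 12-fold higher in members in every library. This is a description of cells chosen by transcripts of the same programme, not a test.

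**Figure D1:**
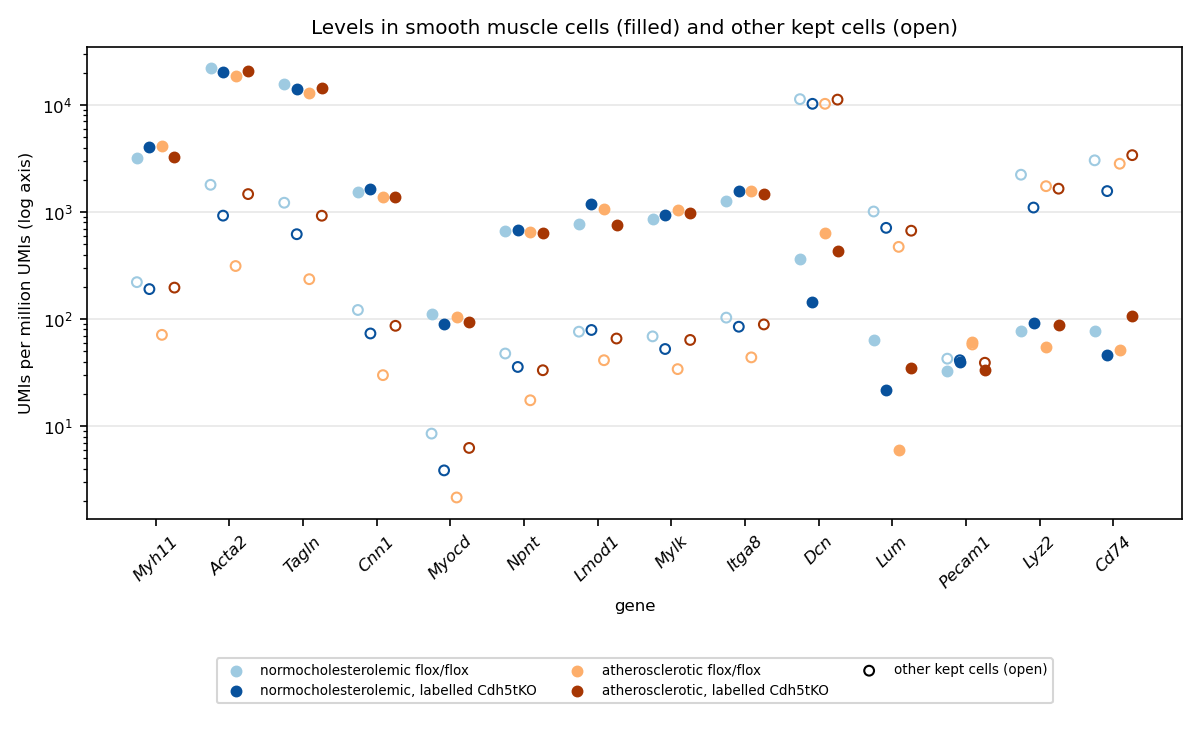
Levels of marker genes in members (filled points) and in the other kept cells (open points), 1 colour per library, in CPM on a log axis. The 9 genes on the left, from Myh11 to Itga8, stand above the other cells in all 4 libraries, while Dcn, Lum, Lyz2 and Cd74 stand below and Pecam1 is near the same level in both.

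Fibroblast, phagocyte and endothelial markers were low but not absent. The 15 fibroblast genes summed to 2407, 2110, 3395 and 2735 CPM in members, 7.19, 6.26, 12.0 and 9.60% of their level in the other kept cells, with Gsn the most abundant and Pdgfra at 0 by the gate. The 14 phagocyte genes summed to 261, 305, 263 and 492 CPM, or 3.19, 6.17, 3.62 and 5.58% of the other cells, led by Cd74 or Lyz2, with Ptprc at 0 by the gate. The 12 endothelial genes summed to 66.3, 64.0, 89.2 and 63.1 CPM, 22.6, 27.3, 25.6 and 23.5% of the other cells, led by Pecam1, at 32.9, 39.7, 60.5 and 33.6 CPM in members and 42.7, 41.3, 57.9 and 39.1 CPM in the other cells. The 5 erythrocyte genes summed to 5.64, 5.41, 72.6 and 8.85 CPM, against 309, 297, 2.88 and 875 CPM in the other cells, so that they were higher in members in the atherosclerotic flox/flox library alone. Kdr, an endothelial receptor, had no UMI in any member, and Adipoq and Mybpc3, which mark adipocytes and heart muscle, had none either. The atrial hormone Nppa had 0, 11, 0 and 0 UMIs. Summed, the 6 adipocyte genes stood at 260, 775, 517 and 188% of the other cells. Cidea (27.3, 14.4, 12.1 and 11.8 CPM) made up nearly all of this sum of 27.7, 14.9, 12.1 and 11.8 CPM. The 18 atrial muscle genes stood at 294, 151, 337 and 246%. Pam (957, 1291, 1376 and 1259 CPM), an enzyme of peptide amidation, made up most of their sum of 1350, 1582, 1524 and 1349 CPM. Of these 18 genes, 4, 2, 12 and 7 had no UMI in members. The part of these transcripts in the results was not tested.

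Nfe2l2 itself was read first in these cells, which are not expected to carry the Cdh5-driven deletion. It stood at 95.3, 97.2, 116 and 156 CPM in members, from 1690, 431, 77 and 424 UMIs. Between genotype labels its log2 ratio (Cdh5tKO to flox/flox) was 0.03 (interval -0.13 to 0.18) under normocholesterolemia and 0.43 (0.07 to 0.80) under atherosclerosis. In cells with at least 2 Cdh5 UMIs, where the deletion is expected, Nfe2l2 was at 156, 325, 179 and 342 CPM in 66, 41, 24 and 22 cells. The intervals were 122 to 197, 269 to 389, 120 to 258 and 268 to 431 CPM. Nfe2l2 was thus not lower but higher in the libraries labelled Cdh5tKO. These counts cover the whole gene and do not separate the removed exon. By qPCR, the paper reported less of this exon and lower Nqo1 and Gclm in Cdh5tKO mice, in bone marrow-derived macrophages and Kupffer cells. The label is carried here as the name of a library. Among 30 targets of Nrf2, of which 26, 25, 26 and 19 could be compared in the flox/flox diet, Cdh5tKO diet, normocholesterolemic label and atherosclerotic label pairs by the calling rule given further on, Hmox1 alone was called, lower in the first and the third pair. Over all genes compared, 0.659 and 1.09% were called lower in those pairs. Nqo1 was at 19.6, 16.9, 19.7 and 15.9 CPM and was not called in the 3 pairs where it had enough UMIs, and Gclm (54.0, 66.3, 48.4 and 69.7 CPM) was called in none of the 4.

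Among the contractile genes, Des alone was called in any of the 4 pairs of libraries compared. Myh11 and Acta2 chose the cells, so their levels and the sum they enter are a description only. The 41 genes of the contractile apparatus summed to 91726, 88736, 84719 and 85168 CPM, and 40 of them were higher in members than in other kept cells in each library, 29 at least 4-fold. Across all genes, 369 of 9992 (3.69%) were at least 4-fold higher in each library. Myh11, the smooth muscle myosin heavy chain used by the gate, was at 3176, 4037, 4101 and 3291 CPM, and Acta2, the smooth muscle actin, at 21898, 20371, 18449 and 20811 CPM. Mylk, the myosin light chain kinase, was at 859, 935, 1040 and 975 CPM, Lmod1, which starts actin filaments, at 778, 1180, 1071 and 763 CPM, and Itga8 at 1269, 1572, 1573 and 1469 CPM. Mylk, Lmod1 and Itga8, which the gate did not use, were called in no pair by the rule given next.

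A gene was called different between 2 libraries when its ratio was at least 2-fold, the nearer bound of its 95% counting interval was at least 1.5-fold, and it had at least 100 UMIs in the members of both together. By this rule, 205 of 9263 genes (2.21%) were called between the atherosclerotic and the normocholesterolemic flox/flox library, and 112 of 6815 (1.64%) between the 2 libraries labelled Cdh5tKO. In the first pair 144 were higher (1.55%) and 61 lower (0.659%) under atherosclerosis, and in the second 77 (1.13%) and 35 (0.514%). With median-of-ratios scaling the first split was 83 higher and 100 lower. Between labels, 163 of 9706 genes (1.68%) were called under normocholesterolemia and 33 of 4361 (0.757%) under atherosclerosis, with 57 higher (0.587%) and 106 lower (1.09%) in Cdh5tKO in the first and 23 (0.527%) and 10 (0.229%) in the second. Of the 41 contractile genes, 1, 0, 1 and 0 were called in these pairs, each time Des, with median log2 ratios of 0.09, -0.11, 0.08 and -0.14 beside 0.11, -0.02, 0.07 and -0.04 over all genes compared.

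Des, Corin and Tnnt2 were highest in the normocholesterolemic flox/flox library. Des, the intermediate filament desmin, was at 179 CPM in normocholesterolemic flox/flox cells and at 41.5, 22.7 and 52.8 CPM in the other 3 libraries (3180, 184, 15 and 143 UMIs). Corin, a protease that activates the atrial peptide, was at 40.8 CPM there and at 4.73, 1.51 and 1.48 CPM in the other 3, from 724, 21, 1 and 4 UMIs. Tnnt2, the cardiac troponin T gene, was at 194, 99.0, 118 and 53.1 CPM, but 93.6% of its UMIs in atherosclerotic flox/flox members lay in 1 cell. The normocholesterolemic flox/flox library thus stood above the other 3 in all 3 genes. It also stood below the other 3 in some transcripts. Without the members rich in fibroblast transcripts that are described further on, Lars2 was at 182, 488, 581 and 483 CPM. Hist1h1e was then at 32.1, 109, 109 and 63.0 CPM. Whether these differences go together was not tested.

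2 of the actin isoforms were lower in both atherosclerotic libraries. Actc1 (ENSMUSG00000068614, GRCm38 chr2:114047282-114053548, minus strand), the actin of heart muscle that smooth muscle can also express, was at 174 CPM (interval 168 to 180) and 165 CPM (153 to 177) in the normocholesterolemic libraries, and at 9.07 CPM (3.33 to 19.8) and 14.4 CPM (10.2 to 19.7) in the atherosclerotic ones. These levels came from 3080, 732, 6 and 39 UMIs. The log2 ratio was -4.26 (interval -5.71 to -3.14) between the flox/flox libraries and -3.52 (-4.02 to -3.05) between those labelled Cdh5tKO, and the 2 pairs share no library. Actg2, the enteric smooth muscle actin, was at 476, 414, 286 and 236 CPM, a log2 ratio of -0.74 (-0.95 to -0.53) and -0.81 (-0.94 to -0.68), short of the 2-fold needed for a call. The cytoplasmic actins were called in neither diet pair, with Actb at 5920, 6778, 7588 and 7537 CPM and Actg1 at 1853, 1527, 1468 and 1567 CPM.

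Actc1 was carried by few cells. At least 1 UMI was seen in 13.7, 18.8, 5.77 and 2.84% of members, and in 1.87, 3.86, 0 and 0% of cells with at least 2 Ptprc UMIs, which should lack it and which had median depths of 9558, 8131.5, 7472 and 8176.5 UMIs. After thinning every member to 5000 UMIs the shares were 11.4, 12.1, 2.08 and 1.56%. In normocholesterolemic flox/flox cells the tenth of members richest in Actc1 held 98.4% of its UMIs. Of the 6 and 39 Actc1 UMIs in the atherosclerotic libraries, 4 and 26 were in 1 cell each. The lower level in these libraries thus went with a lower share of cells with Actc1. Members with 5 UMIs or more numbered 89, 27, 0 and 2, or 7.79, 9.78, 0 and 0.948%. Only 3 and 6 atherosclerotic members had any Actc1 UMI, too few to compare the count per positive cell.

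The promoter of Actc1 holds a CArG box, the binding site of serum response factor, and promoters of other genes described here hold one as well. Among the promoter windows of RefSeq (250 bases before to 50 after each start, build GRCm38.p6), 535 of 32851 (1.63%) held a match to the CArG box, searched as a palindromic class that reads alike on both strands. A window was found for 35 of the 41 contractile genes, and 6 of these genes (17.1%) held a match, beside 488 of 27025 genes in all (1.81%). Of 4 actin genes with a window, 3 did, among them Actg1. A match describes letters in a window, and its absence, as for genes whose boxes lie elsewhere, says nothing about the factor. The stretches, 30 bases each with the box in capitals, are shown for Actc1, for Myl9 (the regulatory light chain of smooth muscle myosin), and for Vcl (vinculin), Filip1l and Dmd (dystrophin), which were higher in cells with more Myh11 as described further on. They lie at chr2:114052903-114052932 (minus strand), chr2:156775293-156775322 (plus), chr14:20929161-20929190 (plus), chr16:57549170-57549199 (plus) and chrX:82948762-82948791 (plus), with the box 47, 161, 227, 62 and 98 bases before the start that RefSeq gives. For Actc1 this start lies inside the span given earlier, which is that of another annotation (GENCODE) and reaches further upstream.
Actc1: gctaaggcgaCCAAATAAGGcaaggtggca
Myl9: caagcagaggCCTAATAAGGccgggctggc
Vcl: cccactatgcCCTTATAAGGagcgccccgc
Filip1l: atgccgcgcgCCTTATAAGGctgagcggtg
Dmd: catgggcagtCCTATTATGGgaaagcaact
The first of these genes was lower in both atherosclerotic libraries, while Myl9 was at 4147, 4390, 4421 and 4270 CPM and Vcl at 329, 359, 411 and 333 CPM, with no call in any pair.

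**Figure D2:**
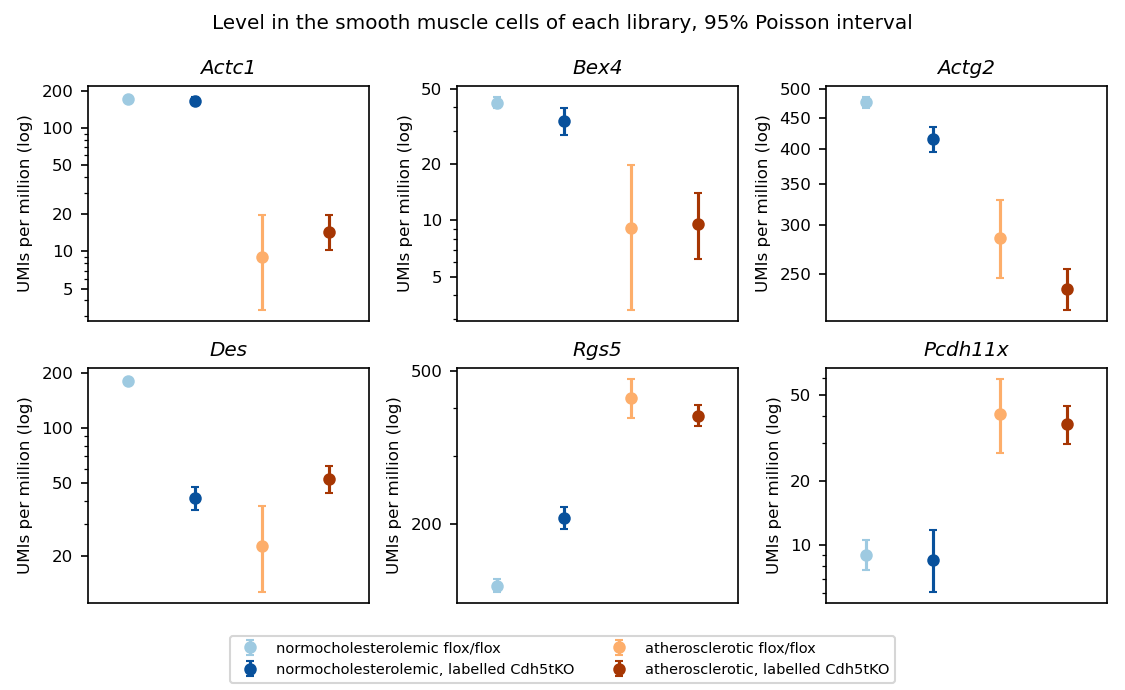
Levels of 6 genes in the members of each library, in CPM on log axes, with 95% Poisson intervals. Actc1 and Bex4 are lower and Pcdh11x higher in both atherosclerotic libraries, Des is high in 1 library, and Rgs5 and Actg2 differ by less than 2-fold in at least 1 diet pair.

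Only 16 of 6813 genes compared in both diet pairs were called the same way in both, 13 higher (0.191%) and 3 lower (0.044%) in the atherosclerotic library, and 4 (0.0587%) were called in opposite directions. The 16 made up 7.80% of the genes called in the flox/flox pair and 14.3% of those called in the Cdh5tKO pair. This count was far smaller without each gene's richest cell, with thinned cells or with a higher minimum count. With no minimum it was far larger, and the closing section gives these counts. Beside Actc1, the lower genes were Bex4 and a predicted gene. Bex4 (GRCm38 chrX:136138996-136140443, plus strand), a small protein of the brain-expressed X-linked family, was at 42.3, 33.6, 9.07 and 9.59 CPM, from 750, 149, 6 and 26 UMIs, with log2 ratios of -2.22 (interval -3.67 to -1.09) and -1.81 (-2.47 to -1.20). Bex4 had a UMI in 28.6, 26.1, 9.62 and 8.06% of members and in under 1% of Ptprc cells in each library.

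Among the higher genes, Pcdh11x and Tceal6 were called in both pairs also without the members rich in fibroblast transcripts that are described next. Pcdh11x (chrX:120290259-120910619, plus strand), a protocadherin of cell contacts, was at 9.08, 8.57, 40.8 and 36.5 CPM, from 161, 38, 27 and 99 UMIs, with log2 ratios of 2.17 (1.52 to 2.76) and 2.09 (1.54 to 2.67). Without the richest cell of each library these were 1.74 and 1.79. Tceal6 (chrX:135208687-135210687, minus strand), which belongs to the same X-linked cluster as Bex4, was at 13.0, 20.7, 37.8 and 44.3 CPM, with log2 ratios of 1.54 (0.88 to 2.14) and 1.09 (0.69 to 1.5), and of 1.19 and 1.08 without the richest cells, when it was no longer called in both. In both genes the 2 atherosclerotic libraries lay above the 2 normocholesterolemic ones. In cells with at least 2 Pdgfra UMIs, Pcdh11x had log2 ratios of 0.66 and 1.43 in the same 2 pairs.

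For the other 9 named genes higher in both pairs, 1 cell held most of the UMIs of atherosclerotic flox/flox members. Pi16, a marker of adventitial fibroblasts, was at 81.1, 35.8, 296 and 166 CPM, and 93.4% of its UMIs in atherosclerotic flox/flox members were in 1 cell. For Clec3b, Igfbp6, Cd34 and Igfbp5 the share of UMIs in the richest cell of that library was 94.1, 95.9, 97.4 and 87.5%. For Ly6c1, Ly6a, Ackr3 and Efemp1 it was 76.7, 73.1, 77.8 and 71.4%. In the atherosclerotic Cdh5tKO library these shares were lower for Igfbp6 (19.8%) and Efemp1 (15.3%). There the richest cell held 180 of 451 UMIs of Pi16 and 237 of 380 of Clec3b. Without the richest cells the ratios of that diet pair were 1.52 for Pi16, 1.41 for Clec3b, 1.66 for Igfbp6 and 1.74 for Efemp1. Those of the flox/flox pair turned, to -1.85, -2.16, -1.29 and -0.24 for the same genes. Members with at least 0.5% of their UMIs in the fibroblast list numbered 62, 10, 3 and 14, or 5.43, 3.62, 5.77 and 6.64% of members, and they held 21.8, 7.11, 53.6 and 40.4% of the fibroblast UMIs of their library.

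The values without these 89 cells are given next. The cells were chosen by their fibroblast transcripts after the data were seen, so lower values of Pi16 and Clec3b, which are on that list, and of genes found in the same cells follow from the choice and are no test. Pi16 then had log2 ratios of -1.80 (interval -2.81 to -0.96) and -0.21 (-0.62 to 0.20), Clec3b of -1.74 and 0.08, Cd34 of -3.06 and -0.26, and Igfbp5 of 0.20 and -0.16, while Efemp1 had 0.19 and 1.25 (0.70 to 1.81 in the Cdh5tKO pair). Actc1 kept -4.20 and -3.45, Bex4 -2.17 and -1.80, and Pcdh11x 2.23 and 2.04. Of the 16 genes, 6 were then still called in both pairs, and 9 genes in all were. Whether the cells rich in fibroblast transcripts were doublets, cells with free RNA or smooth muscle cells that express these genes was not tested. Scrublet marked none of the 52 atherosclerotic flox/flox members.

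**Figure D3:**
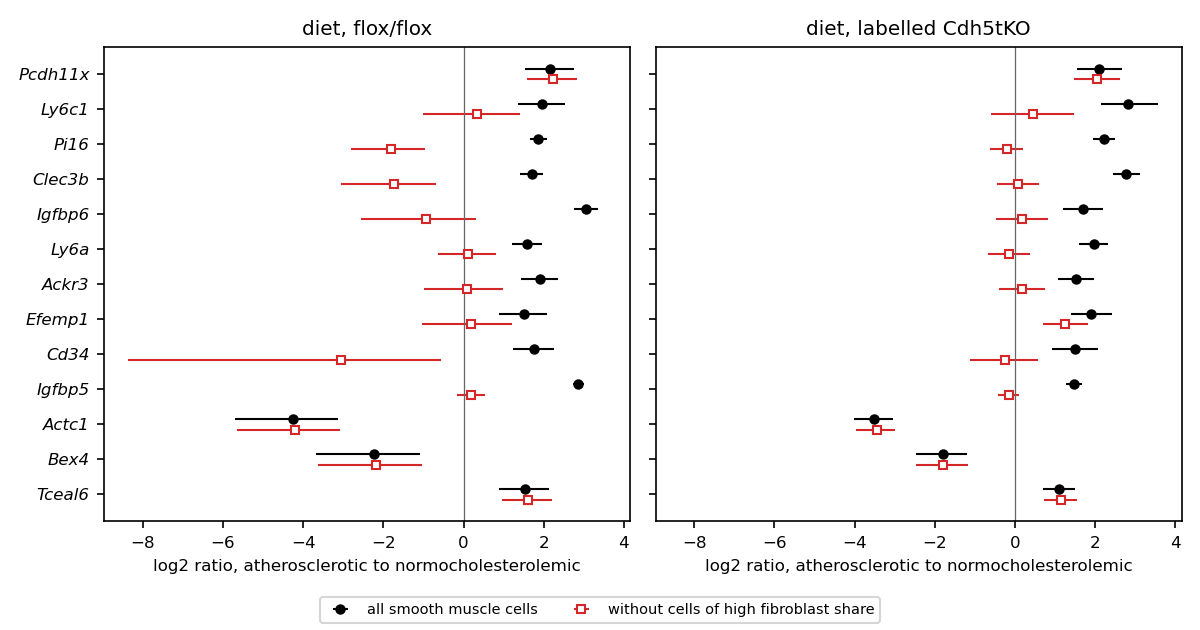
Log2 ratio of the atherosclerotic to the normocholesterolemic library for 12 named genes called the same way in both diet pairs and for Tceal6, with 95% counting intervals (black, all members; red, without the 89 members with at least 0.5% fibroblast UMIs). Actc1, Bex4, Pcdh11x and Tceal6 keep their place, and Pi16, Clec3b, Igfbp6 and Cd34 cross 0 in the flox/flox pair.

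Rgs5, an inhibitor of G protein signalling typical of pericytes and arterial smooth muscle, was at 139, 208, 425 and 383 CPM, a log2 ratio of 1.62 (1.43 to 1.80) in the flox/flox pair and 0.88 (0.75 to 1.01) in the Cdh5tKO pair, of which the first was called. Without the richest cell of each library, which held 41.3% of the Rgs5 UMIs of atherosclerotic flox/flox members, the ratios were 0.90 and 0.88. Notch3, the receptor that maintains arterial smooth muscle, was at 17, 24.8, 55.9 and 12.9 CPM, and its ligand Jag1 at 27.6, 44.9, 66.5 and 35.4 CPM. Both were called higher in the flox/flox diet pair, and both were lower in the atherosclerotic library of the other pair, with log2 ratios of -0.94 and -0.34 that were not called. Of 32 receptor and signalling genes, 24 were compared in the flox/flox pair with 3 called higher, beside 1.55% of all genes, and 21 in the Cdh5tKO pair with 1, beside 1.13%. The latter was Calcrl, the receptor of calcitonin gene-related peptide. Of 12 pericyte genes, 8 were compared in each diet pair. In the flox/flox pair 2 were called higher (median log2 0.68, beside 0.11 over all genes), and in the Cdh5tKO pair 0 (0.03, beside -0.02).

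Gucy1a1, Gucy1b1 and Htr1b were called in neither diet pair. Gucy1a1, a subunit of the nitric oxide receptor, was at 458, 503, 516 and 475 CPM, and its partner Gucy1b1 at 310, 306, 361 and 235 CPM. Htr1b, the serotonin receptor that contracts arteries, was at 32.1, 18.5, 45.4 and 35.8 CPM, and led all genes in how far members stood above other kept cells (smallest log2 ratio 4.15 over the 4 libraries). Of 26 channel and calcium genes, 20 were compared in the flox/flox diet pair and 19 in the Cdh5tKO pair, with no call in either. Over all genes compared, 2.21 and 1.64% were called in these pairs. Outside this list, Kcnk3, a potassium leak channel, was at 31.3, 45.3, 30.2 and 9.22 CPM and was called lower in the Cdh5tKO diet pair (log2 -2.30, interval -2.96 to -1.69). Casq1, a calcium-binding protein of the sarcoplasmic reticulum, was at 10.5, 29.1, 46.9 and 14.8 CPM and was called higher in the flox/flox diet pair (2.16, 1.56 to 2.71). Atp2a2, the calcium pump of the sarcoplasmic reticulum, was at 410, 487, 523 and 434 CPM, and Kcnma1, the large-conductance potassium channel, at 63.7, 77.6, 75.6 and 77.5 CPM.

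Genes of phenotypic modulation differed in other ways in the 2 diet pairs, and the difference between the pairs was not tested. Of 28 genes on the modulation list, 2 were called higher and 3 lower of 21 compared in the flox/flox pair (median log2 -0.13), and 7 higher and 0 lower of 19 compared in the Cdh5tKO pair (median 0.68). Over all genes 1.55% were called higher and 0.659% lower in the first pair (median 0.11), and 1.13 and 0.514% in the second (median -0.02). Without the 89 fibroblast-rich cells, 1 and 2 were called of 21 compared in the first pair (median -0.13), and 2 and 0 of 17 in the second (median -0.01). Vcam1, an adhesion molecule of modulated and inflamed cells, was at 63.1, 34.0, 90.7 and 157 CPM, with log2 ratios of 0.52 (0.12 to 0.90) and 2.21 (1.94 to 2.48). Only 20.6, 19.6, 26.9 and 21.8% of members had a Vcam1 UMI, beside 10.3, 8.39, 7.87 and 13.6% of Ptprc cells, and 41.7 and 34.5% of its UMIs in the atherosclerotic libraries were in 1 cell each. Without the richest cells its ratios were -0.14 and 1.75. Klf4, a transcription factor of modulation, was at 204, 187, 343 and 355 CPM, with log2 ratios of 0.75 (0.55 to 0.94) and 0.92 (0.79 to 1.06), neither called. Spp1, a gene of late modulated cells, had 11, 2, 1 and 8 UMIs. Between labels, 0 modulation genes were called higher and 5 lower of 22 compared under normocholesterolemia (median -0.35). Over all genes 0.587% were called higher and 1.09% lower in that pair. Under atherosclerosis 0 of 16 were called (median 0.04). Without the 89 fibroblast-rich cells, 2 of 22 were called lower under normocholesterolemia (median -0.29).

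Of 18 lipid handling genes, 1 of 15 compared was called in the flox/flox diet pair and 0 of 13 in the other, and of 40 elastic and fibrillar matrix genes 1 of 37 (lower) and 1 of 35 (higher), beside 2.21 and 1.64% of all genes. Without the 89 fibroblast-rich members the matrix list had 2 lower in the first pair and 3 lower in the second, with none higher. Apoe, the lipid carrier, was at 824, 610, 360 and 420 CPM, called lower in the flox/flox pair (log2 -1.20, interval -1.39 to -1.01) and at -0.54 (-0.64 to -0.44) in the other. Of 20 sterol synthesis and uptake genes none was called in either diet pair, with a median log2 ratio of -0.59 over 16 compared and -0.31 over 13. Mgp, an inhibitor of calcification, was at 7533, 8511, 6315 and 8228 CPM. Col4a1, the basement membrane collagen, was at 454, 556, 439 and 413 CPM, and Col18a1 at 615, 635, 482 and 521 CPM. Of 21 basement membrane genes, 19 were compared in each diet pair and 1 was called, Nid1, higher in the flox/flox pair, and none of 19 was called there without the 89 fibroblast-rich members.

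**Figure D4:**
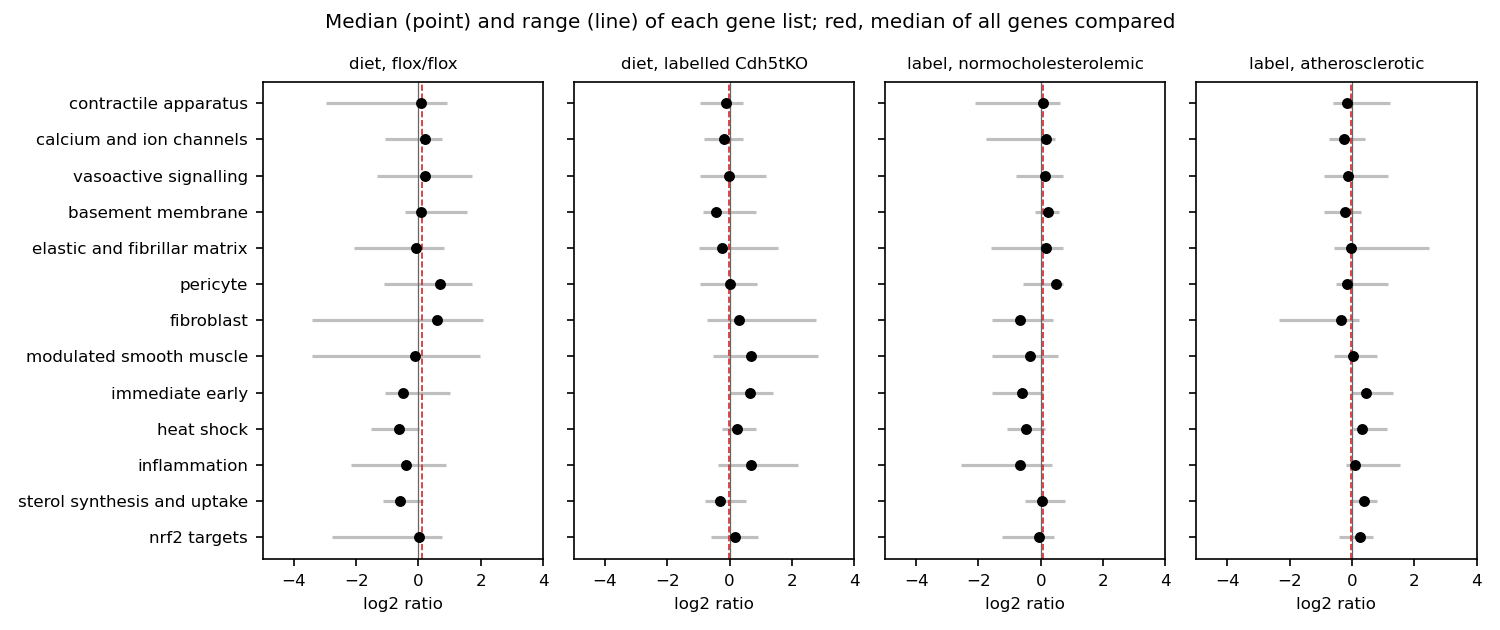
Median (points) and lowest to highest (lines) log2 ratio of the compared genes of 13 gene lists in each pair of libraries, atherosclerotic to normocholesterolemic for diet and Cdh5tKO to flox/flox for label, with the median of all genes compared in red. The contractile list stays near 0 in every pair, and the immediate-early list lies below 0 in 2 pairs and above 0 in the other 2.

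Immediate-early genes, which cells switch on within minutes of a stimulus and which tissue digestion can also raise, were highest in the normocholesterolemic flox/flox and the atherosclerotic Cdh5tKO library. The 27 genes summed to 26990, 20089, 19190 and 27330 CPM, led by Fos at 6974, 4463, 4594 and 5941 CPM. In the flox/flox diet pair 0 were called higher and 3 lower of 27 (median -0.50), in the Cdh5tKO diet pair 6 and 0 of 26 (median 0.66), in the normocholesterolemic label pair 0 and 5 of 27 (median -0.61), and in the atherosclerotic label pair 3 and 0 of 25 (median 0.46). Over all genes, 0.659% were called lower in the first of these pairs, 1.13% higher in the second, 1.09% lower in the third and 0.527% higher in the fourth. Ier3 was at 530, 340, 283 and 710 CPM and Zfp36, which degrades cytokine messengers, at 607, 281, 293 and 471 CPM. Of the heat shock genes, Hspb1 was highest in the same libraries (2500, 1178, 1462 and 2047 CPM), while Hspa1a was at 733, 418, 283 and 349 CPM. The part of tissue handling in these differences was not tested.

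Between labels, only C1qa was called the same way in both pairs of 4361 genes compared in both (0.0229%), a call lost with members of at least 10 Myh11 UMIs (log2 1.31 under atherosclerosis, lower bound 0.45) and with a minimum of 300 UMIs, and 4 genes (0.0917%) were called in opposite directions. C1qa, a complement gene of macrophages, was at 17, 37.4, 18.1 and 63.8 CPM in members (302, 166, 12 and 173 UMIs), beside 503, 475, 380 and 761 CPM in the other kept cells, with log2 ratios between labels of 1.14 and 1.81 in members and -0.08 and 1.0 in the other cells. It had a UMI in 19.3, 42.0, 19.2 and 43.1% of members and in 47.9, 60.9, 40.8 and 67.5% of Ptprc cells, and the part of phagocyte transcripts in this result was not tested. Under normocholesterolemia the metallothionein genes were lower in the library labelled Cdh5tKO, with Mt1 at 2423 and 1113 CPM (log2 -1.12) and Mt2 at 257 and 118 CPM (-1.12). This was not particular to members. Summed, both genes were at 5638 and 3775 CPM in the other kept cells of these libraries. In Ptprc cells the sum was 2650 and 908 CPM. Hmox1, a heme-degrading target of Nrf2, was at 20.7, 8.79, 3.02 and 12.5 CPM, from 367, 39, 2 and 34 UMIs, and was called lower in the normocholesterolemic label pair and in the flox/flox diet pair. Under atherosclerosis, Adm, the vasodilator adrenomedullin, was at 22.7 CPM in flox/flox and 86.3 CPM in Cdh5tKO members (log2 1.93), beside 68.1 and 70.6 CPM in the normocholesterolemic libraries, and Igfbp4 at 107 and 295 CPM (1.46). Both were lowest in the atherosclerotic flox/flox library, which had the fewest members.

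Members with Actc1 differed from members without it in other genes too. In the normocholesterolemic libraries, 89 and 27 members with at least 5 Actc1 UMIs were set against 985 and 224 members with none, at median depths of 15926 and 18449 against 15718 and 15946.5 UMIs. Of 4931 genes compared in both, 3 (0.0608%) were called higher in both, named here after their values were seen: Kcnk3 with log2 ratios of 1.92 and 2.21, Tnnt2 with 2.52 and 1.68, and Bmp3 with 2.35 and 1.48. Lower in both were 16 genes (0.324%), led by Lamc3, a laminin chain (-2.75 and -3.87), Sox9 (-2.29 and -3.73) and Lgals3 (-2.27 and -2.54). Sox9 is a cartilage transcription factor and Lgals3 encodes galectin-3. Actg2 was at 922 CPM in flox/flox cells with Actc1 and 429 CPM in those without (log2 1.10, interval 1.02 to 1.19), and at 688 and 349 CPM in the Cdh5tKO library (0.98, 0.79 to 1.16). Bex4 followed the same order, at 92.0 and 36.6 CPM and at 52.2 and 29.5 CPM.

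Myh11 and Acta2, on which all these cells were chosen, had smaller ratios. Myh11 was at 3596 CPM with Actc1 and 3134 CPM without in flox/flox cells, and at 4178 and 3998 CPM in the Cdh5tKO library. Acta2 was at 23872 and 21730 CPM, and at 24465 and 19672 CPM. Corin, named after its values were seen to differ between libraries, was at 161 and 29 CPM in flox/flox cells (log2 2.47). Hoxb5, a gene of body position that was chosen after its values were seen, had 0 UMIs in the 89 flox/flox cells with Actc1 and 101 in those without, at least 3.14-fold lower with the limit that a count of 0 allows (3 UMIs over these cells), and 0 against 37 UMIs in the Cdh5tKO library, at least 1.59-fold lower.

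Members with Rgs5 formed a second such group, in 3 libraries with enough cells (102, 35 and 37 members with at least 5 Rgs5 UMIs against 833, 178 and 148 with none). Of 3251 genes compared in all 3, 7 (0.215%) were higher in each and 3 (0.0923%) lower, named after their values were seen. Vcan, the matrix proteoglycan versican, was at 335 against 76.9 CPM, 415 against 77.0 CPM and 381 against 78.6 CPM (log2 2.12, 2.43 and 2.28). Kcnj8, the pore of an ATP-sensitive potassium channel, had log2 ratios of 1.56, 1.85 and 1.48, and its partner Abcc9 0.57, 0.54 and 0.64. Lgals3 was lower in each (-1.38, -1.08 and -2.27), as was the chemokine Cxcl1 (-1.03, -2.28 and -2.57). Acta2 was also somewhat lower, with log2 ratios of -0.20, -0.42 and -0.43. Notch3, with 20, 4 and 1 UMIs in these cells, had log2 ratios of -0.66, -1.92 and -2.86.

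Along the Myh11 level, members were split within each library into quintiles by Myh11 UMIs per 10000 UMIs. Its median went from 15.5 in the lowest to 50.9 in the highest quintile of normocholesterolemic flox/flox cells, and from 18.8 to 71.2, 13.7 to 76.7 and 13.6 to 58.9 in the other libraries. Median depth in the lowest and highest quintiles was 14697 and 16449, 15655.5 and 14025, 12922 and 12787.5, and 13137 and 9965 UMIs. The highest quintile was compared with the lowest, with Myh11 taken out of the totals. Genes compared had at least 100 UMIs in these quintiles over all libraries and 10 in each library. A gene was counted when the highest quintile exceeded or fell below the lowest by at least 0.5 in log2 in each of the 4 libraries. This held for 155 of 4229 genes upward (3.67%) and for 60 downward (1.42%), with a median over all genes of 0.05. The total of 215 was 466 without the atherosclerotic flox/flox library, 433 without the normocholesterolemic one, 104 with cells thinned to 5000 UMIs and 112 with 3 groups of cells in place of 5. The quintiles of the atherosclerotic flox/flox library held 10 or 11 cells each. Because Myh11 chose the cells and the quintiles, these values describe how the programme is spread and are not a test.

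Many contractile genes were higher where Myh11 was. Of 40 compared, 16 were counted upward and 0 downward (median 0.76), beside 3.67 and 1.42% of all genes. Mylk had log2 ratios of 1.22, 1.19, 1.08 and 1.38, Flna (filamin A, which crosslinks actin) 0.84, 1.13, 1.36 and 1.53, and Synpo2, an actin-bundling protein, 0.96, 1.5, 1.93 and 1.58. Acta2 had smaller ratios, with 0.38, 0.23, 1.06 and 0.34, and Tagln with 0.29, 0.14, 0.95 and 0.07, so neither was counted. Myocd had 0.56, 0.83, 1.80 and 1.24. Among the genes with the largest smallest ratio were Tnfrsf11a, Mylk, Fyco1, Plcb4, Macf1, Casq1, Synm, Mcam and Dmd. Macf1, a linker of actin and microtubules, had 1.07, 0.99, 1.56 and 1.39.

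Of 18 basement membrane genes compared, 6 were counted upward (3 of 16 without the 89 fibroblast-rich members), among them Col4a1 (0.60, 0.79, 1.52 and 1.09) and Itga1, a collagen receptor (0.94, 0.82, 1.59 and 1.45). Over all genes, 3.67% were counted upward and 1.42% downward. Of 14 channel and calcium genes 4 were counted, among them Itpr1, the calcium release channel (0.80, 1.11, 0.99 and 1.59), and Atp2a2 (0.73, 0.50, 1.57 and 0.96). Of 32 elastic and fibrillar matrix genes, 1 was counted upward and 4 downward (median -0.17; 1 and 1 of 31 without the 89 fibroblast-rich members). The upward gene, Sparcl1, a matrix glycoprotein, had 0.93, 1.10, 2.73 and 2.28.

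Of 14 modulation genes compared, 5 were counted downward (median -1.03, or 3 of 13 with median -0.83 without the 89 fibroblast-rich members). Of 11 fibroblast genes, 2 were (median -2.02), and over all genes 1.42% were. Vcam1 had the largest smallest ratio, at -3.28, -2.68, -4.55 and -5.12, and was at 629 CPM in the lowest and 18.1 CPM in the highest quintile of atherosclerotic Cdh5tKO members. Dcn, the collagen-binding decorin, had -2.69, -1.20, -5.45 and -3.58, Mgp -1.15, -0.97, -1.42 and -1.58, Klf4 -0.54, -0.59, -1.70 and -0.98, and Klf2, a flow-responsive factor, -0.72, -0.94, -2.37 and -1.31. Without those members, whose removal by itself lowers fibroblast transcripts, Dcn had -0.36, 0.27, -1.36 and -0.94 and was no longer counted, and no fibroblast gene of 6 compared was. Klf4 then had -0.27, -0.87, -0.99 and -0.58 and was not counted either, while Vcam1 (-3.11, -2.72, -4.70 and -5.11) and Mgp (-1.09, -0.97, -1.62 and -1.66) were.

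**Figure D5:**
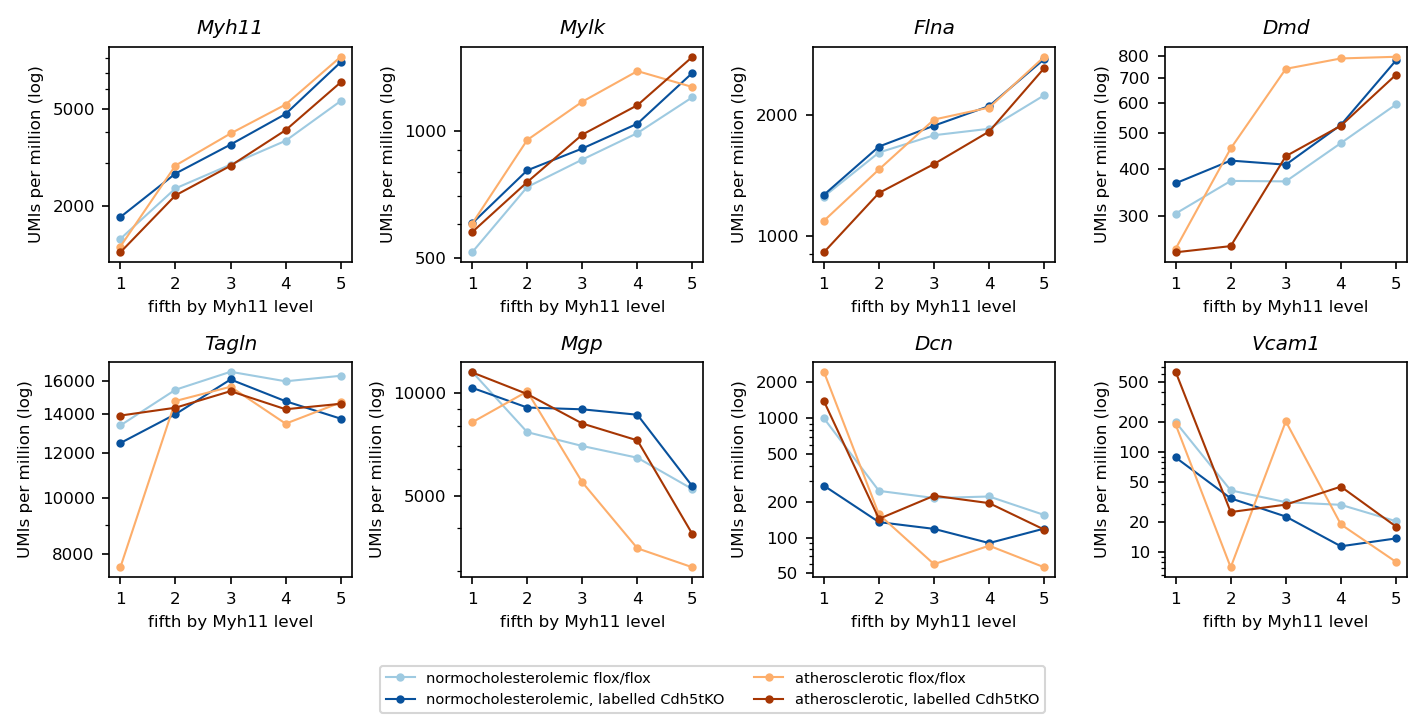
Level of 8 genes by quintile of the Myh11 level, in CPM on log axes, 1 line per library. Mylk, Flna and Dmd are higher and Mgp, Dcn and Vcam1 lower in the highest than in the lowest group in every library, and Tagln differs less.

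To find the genes whose level over single cells was most like that of Myh11, members were thinned to 5000 UMIs each, which left 1096, 264, 48 and 192 cells, and Spearman's correlation of each of 2354 genes with Myh11 was averaged over the libraries. Flna was the most alike (0.37, 0.50, 0.68 and 0.58, mean 0.53), then Ppp1r12a, the targeting subunit of myosin phosphatase (mean 0.46), Lpp (0.45), Mylk (0.43), Dmd (0.40), Synpo2 (0.39), Itga8 (0.38), Pcdh7 (0.37), Tns1 (0.36) and Plcb4 (0.34). These cells share a library, an equal depth and the sampling noise of low counts, so the values are a description with no p-value.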

How the data were processed

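Aortic arch cells were profiled with 10x 3' v3.1 chemistry, and the authors ran Cell Ranger 6.1.2 on mm10 and deposited raw UMI counts per gene and barcode (31053 genes, 4 libraries, 1 per condition, pooled mice). The study's filters (200 to 6000 genes, at most 15% mitochondrial UMIs) were applied to the deposited counts. Counts of member cells were summed per library and scaled to CPM. Intervals are exact Poisson, exact binomial (log2 ratios) and Clopper-Pearson, at 95%. A count of 0 was set to a floor of 3 counts. No test between conditions was made. The calling rule was tested on simulated sums with counting error only. They held no spread between cells, so they do not cover genes whose UMIs lie mostly in 1 cell.

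The members and gene lists were chosen with earlier results of these data known. Genes named are those of the lists, and the genes of each comparison furthest from 0 (up to 10 per direction for shared and Myh11 results, 5 for a single pair, 20 against other cells and 10 most like Myh11). Predicted, mitochondrial and ribosomal protein genes were counted but not named. One gene that the rule names is not reported here. Leaving out each gene's richest cell, fibroblast-rich members, or 3 abundant genes from the totals was chosen after seeing the data. The work was done in Python (3.11.15) with matplotlib (3.10.9), scanpy (1.11.5, with Scrublet), pandas (2.3.3), scipy (1.17.1) and numpy (2.4.6).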

Additional observations from a re-analysis of the deposited data

Results flagged for a closer look

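In smooth muscle cells, 4 genes were called in opposite directions in the 2 diet pairs, and 4 in the 2 label pairs. The differences between pairs were not tested. For diet, the log2 ratios in the flox/flox and the Cdh5tKO pair were -1.53 and 1.11 for Sgk1, -1.07 and 1.69 for Nme2, -1.17 and 1.72 for Cebpd, and 1.59 and -1.01 for AY036118. For label, those under normocholesterolemia and atherosclerosis were -1.15 and 1.5 for Sgk1, -1.35 and 1.79 for Rasd1, -1.25 and 2.37 for Arc, and -1.19 and 1.70 for Cebpd. Sgk1 and Cebpd appear in both, and as each diet pair shares a library with each label pair, these results are not independent. Sgk1 is a hormone- and stress-induced kinase, Cebpd a transcription factor of acute responses, and Arc an immediate-early gene. The immediate-early list had median ratios of -0.50 and 0.66 in the 2 diet pairs, the signs seen for Sgk1, Nme2 and Cebpd and not for AY036118. Its part in these values was not tested.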

How the results depend on the processing

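No paired analysis was possible because each condition has 1 library, so the groups share fewer than 2 replicate numbers. An additive model of diet and label over the 4 libraries, with 1 residual degree of freedom, was not fitted. With no minimum count, 350, 254, 297 and 151 genes were called in the flox/flox diet, Cdh5tKO diet, normocholesterolemic label and atherosclerotic label pairs, and 35 and 7 were shared by the diet and by the label pairs. With a minimum of 300 UMIs the last 3 pairs in this order gave 40, 103 and 16 calls, and 7 and 0 genes were shared by the diet and by the label pairs. Thinned to 5000 UMIs per cell, the 4 pairs gave 100, 42, 98 and 19, and 6 were shared by diet. A mean over cells gave 56 for the atherosclerotic label pair and 3 shared by label, median-of-ratios scaling 3 shared by label, and Myh11 of at least 10 UMIs 0. With each gene's richest cell left out, 8 were shared by diet and 3 by label, and without the fibroblast-rich members 9 by diet. The shift in the median of all genes under median-of-ratios scaling was -0.17 in the flox/flox diet pair and 0.11 in the atherosclerotic label pair. The flox/flox split was then 83 higher and 100 lower, beside 144 and 61, the atherosclerotic label split 35 and 6, beside 23 and 10, and a mean over cells moved the normocholesterolemic label split to 88 and 100, beside 57 and 106.

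Genes whose direction turned were these. Without the richest cell, the flox/flox diet ratios were -1.85 for Pi16, -2.16 for Clec3b, -1.29 for Igfbp6, -0.23 for Ly6a, -0.23 for Ackr3, -0.24 for Efemp1, -3.46 for Cd34, -0.083 for Igfbp5 and -0.60 for Grem1, and the atherosclerotic label ratios 1.64 for Dpt, 2.05 for Igfbp6, 0.36 for Igfbp5, 0.63 for Marcks and 2.12 for Tnnt2 (2.80 with Myh11 of at least 10). Without the fibroblast-rich members, the flox/flox ratios were -1.80 for Pi16, -1.74 for Clec3b, -0.93 for Igfbp6 and -3.06 for Cd34, the Cdh5tKO ratios -0.21 for Pi16, -0.15 for Ly6a, -0.26 for Cd34 and -0.16 for Igfbp5, and the atherosclerotic label ratios 0.22 for Dpt and 0.76 for Igfbp6. The cause was not tested.

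The Myh11 gradient gave 112 genes with 3 groups of cells in place of 5, 104 with thinned cells, 134 without the fibroblast-rich members, and 240 to 466 with 1 library left out (466 without the atherosclerotic flox/flox library, 433 without the normocholesterolemic one). In all, 865 of 984 values of named genes kept their direction and call, 94 kept the direction only and 25 turned. A named gradient gene with too few UMIs under a setting was left out of these values. With thinned cells this left 8 of the 20 named gradient genes. The 661328 member UMIs of the atherosclerotic flox/flox library, from 52 cells, limit every comparison with it.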
